A study of Mus musculus with 18 samples.

Results

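Breast cancer cells of the mouse line 168FARN were compared between spheroids that also held MMTV-CAFs lacking Prrx1 (sgPrrx1 coculture) and spheroids of cancer cells with no fibroblasts (alone). The members were the 3 libraries of each group, 6 of the 18 libraries of the series, chosen by the columns of the count table that carry their titles. 168FARN-Luc-GFP cells carry luciferase and GFP. MMTV-CAFs are cancer-associated fibroblasts from tumours of MMTV-PyMT mice, in which a viral promoter drives an oncogene in the mammary epithelium. Cocultures had 3 fibroblasts per cancer cell, were started in hanging drops and grown for a week, and the GFP-tagged cancer cells were then sorted, per the study's methods. Elsewhere the study describes the fibroblasts as the cells that carried GFP, so which cells the sort took rests on the methods and the labels. Prrx1, a homeobox transcription factor gene of mesenchymal cells, had been deleted with CRISPR/Cas9 in the fibroblasts only. A further group of 3 libraries, from 168FARN mixed with fibroblasts that carried the control guide sgNS (WT coculture), is given beside the results. The genes described were those with a mean of at least 10 CPM (read counts brought to 1 library size, corrected for composition) in cells alone, 9144 of the 13540 genes tested. Just inside this limit lay Alkbh8 at 10.0 CPM and Ccdc84 at 10.0 CPM, and just outside lay Cwc27 at 9.99 CPM and Rusc1 at 9.96 CPM.

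As background, fibroblasts of a tumour lay down collagens, fibronectin and other matrix, and signal to cancer cells through secreted factors and contact. Cancer cells in turn make part of the basement membrane, the sheet of laminins, type IV collagens and perlecan on which epithelia rest, and many carcinoma lines secrete complement and acute phase proteins, which are best known from the liver in inflammation. Interferon-stimulated genes are switched on when type I interferons or double-stranded nucleic acid activate the STAT and IRF transcription factors, and many of their products act against viruses.

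The 6 libraries held 48489407 to 64487606 counts. The biological coefficient of variation over the 9 libraries of the line was 0.0728, and replicates of the 2 groups differed from each other by more than counting noise, with a chi-square per degree of freedom of 10.8 to 16.6. The labels do not say whether the 3 libraries of a group came from separate cultures, so the p-values measure only the spread between these libraries, which may be technical. Of the defining epithelial markers, Krt8 was at 331 ± 12.5 CPM alone (SD, n = 3), while Cdh1, Epcam, Krt5, Krt14 and Krt18 had at most 8 counts in any library. Vim, Twist1 and Twist2, genes of mesenchymal cells, were at 2278, 60.2 and 41.5 CPM alone, so the cells labelled as a breast cancer line had few reads of most epithelial keratins and of E-cadherin. Prrx1 itself was measured in the cancer cells, where it was not deleted, and does not check the labels. Its log2 fold change from cells alone to sgPrrx1 coculture was 0.35 (SE 0.0260, adjusted p 1.11e-06 in edgeR).

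Fibroblast markers were measured in each group. Of 26 listed, 24 were tested and 10 were at 10 CPM or more in cells alone, where Sparc, Col6a1 and Pdgfra stood at 334, 72.0 and 69.3 CPM. Of the 24, 15 rose and 3 fell in sgPrrx1 coculture against cells alone, with 25.7% of all genes tested rising and 24.1% falling. Their summed level was 679.7 to 944.6 CPM alone, 780.7 to 969.3 CPM in sgPrrx1 coculture and 2126 to 2362 CPM in WT coculture. Dcn, which encodes the matrix proteoglycan decorin, had 0.308, 0.187 and 0.329 CPM alone and 43.9, 44.2 and 41.9 CPM in sgPrrx1 coculture. Col1a2, a chain of type I collagen, was measured at 0.103, 0.125 and 0.0824 CPM alone and 14.5, 11.4 and 12.6 CPM in sgPrrx1 coculture. These were clear rises from levels close to 0. The defining markers Postn, Thy1, Fap and Lum had at most 4 counts in any sgPrrx1 library and at most 5 in any alone library. Of 13 macrophage markers, 6 were tested, with a summed level of 85.4 to 91.2 CPM alone and 101.8 to 105.6 CPM in sgPrrx1 coculture. Of these 6, 3 rose and 2 fell, beside the same shares of all genes tested, and Csf1r and Cd68 were among those that passed. Ptprc, Adgre1 and Tyrobp had at most 6 counts. Of 10 endothelial markers 5 were tested, with a summed level of 4.07 to 4.82 CPM alone and 7.75 to 9.31 CPM in sgPrrx1 coculture. Of these 5, 2 rose, Cdh5 among them, and 0 fell, beside 25.7% and 24.1% of all genes tested. Emcn and Cldn5 had 0 counts. The part of carried-over cells or their RNA in the results was not tested, and in these bulk samples fewer cells of a type and less RNA per cell cannot be told apart. The floor of 10 CPM alone keeps the account to genes already measured in the cancer cells by themselves.

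Among the 9144 genes at this floor, 2430 rose (26.6%) and 2757 fell (30.2%) in sgPrrx1 coculture against cells alone by edgeR's quasi-likelihood test at an adjusted p under 0.05. Over all 13540 genes tested, 6735 passed (49.7%). Most of the changes at the floor were small. The median size was 0.23 on the log2 scale among genes that fell and 0.20 among those that rose, and the median over all 9144 genes was -0.01. At least 2-fold changes were seen in 60 genes that rose (0.656%) and 56 that fell (0.612%). The 3 sgPrrx1 libraries lay wholly above the 3 alone libraries for 2903 genes (31.7%) and wholly below for 3155 genes (34.5%). When the floor was set on the mean of all 9 libraries in place of the alone libraries, 98 genes rose (1.07%) and 45 fell (0.491%) at least 2-fold, since genes low in cells alone then enter.

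**Figure D1:**
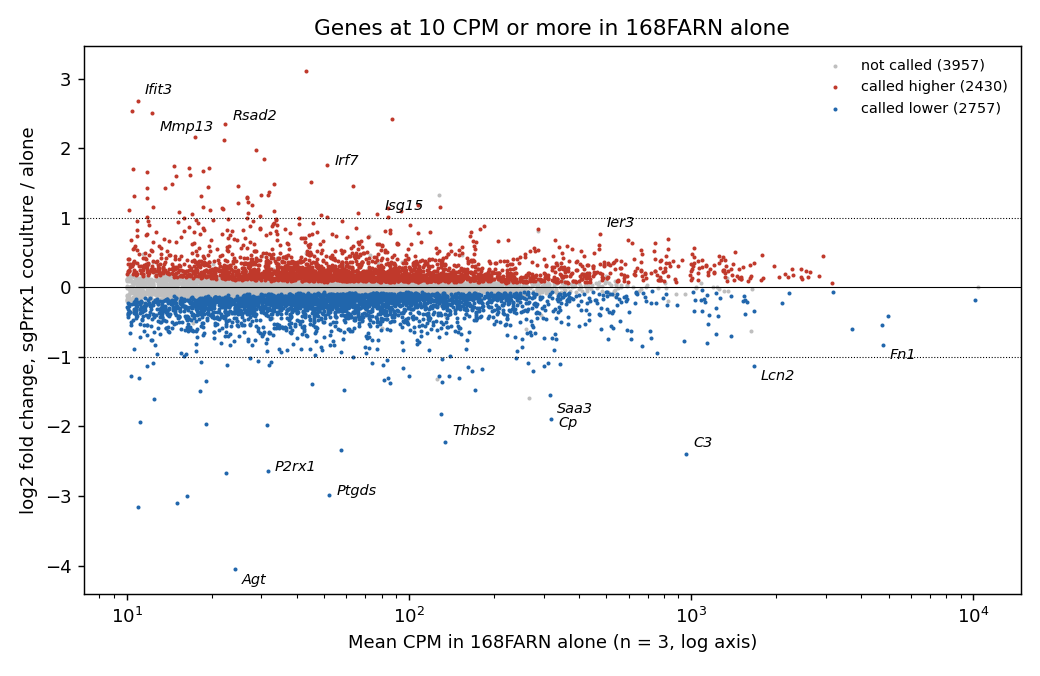
Log2 fold change from 168FARN alone to sgPrrx1 coculture (vertical axis) against the mean CPM of the 3 alone libraries (horizontal log axis) for the 9144 genes at 10 CPM or more alone. Red points rose and blue points fell at an adjusted p under 0.05, dotted lines mark 2-fold, and most coloured points lie well inside them.

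Of the gene lists examined, which were chosen with earlier results of these data known, complement and acute phase genes had the largest fall. Of 16 listed, 15 were tested and 9 were at the floor. All 9 fell, 6 of them at least 2-fold, where 30.2% of all genes at the floor fell and 0.612% fell at least 2-fold. The median log2 fold change was -1.55 against -0.01 over all genes at the floor. The list holds Ptgds, which is neither a complement nor an acute phase gene. Without it, a choice made after its values were seen, 8 of 8 fell, 5 at least 2-fold, with a median of -1.34. C3, the protein on which the complement pathways converge (chromosome 17, 57203967 to 57228136, GRCm38), was at 945, 984 and 947 CPM in the 3 alone libraries, 176, 189 and 180.2 CPM in the 3 sgPrrx1 libraries and 185, 182 and 183 CPM in the 3 WT libraries. Each coculture library was far below each library of cells alone, and the cocultures overlapped. C3 was thus 5.28-fold lower in sgPrrx1 coculture than alone, with a log2 fold change of -2.40 (SE 0.0301, adjusted p 1.56e-12 in edgeR), while the difference between sgPrrx1 and WT coculture was -0.01 (SE 0.0287, adjusted p 0.696).

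Lcn2, which encodes lipocalin 2, a protein that binds bacterial siderophores (chromosome 2, 32384637 to 32387739), went from 1699.6, 1637 and 1657 CPM alone to 756, 761 and 766 CPM in sgPrrx1 coculture. Saa3, a serum amyloid A gene (chromosome 7, 46711998 to 46719615), went from 319, 305 and 324 CPM to 108, 106 and 109.6 CPM. Cp, which encodes the copper carrier ceruloplasmin (chromosome 3, 19956933 to 20009750), went from 306, 321 and 326 CPM to 87.3, 83.2 and 85.3 CPM. None of these genes had overlapping groups, and the sgPrrx1 replicates were tightly spaced. The log2 fold changes were -1.13 (SE 0.0201) for Lcn2, -1.55 (SE 0.0336) for Saa3 and -1.90 (SE 0.0327) for Cp. Cp was also lower than in WT coculture, where its mean was 146 CPM, with a log2 difference of -0.78 (adjusted p 1.23e-08 in edgeR). With sgPrrx1 fibroblasts Lcn2 exceeded its level with WT fibroblasts, by 0.19 on the log2 scale (adjusted p 9.57e-06 in edgeR), so its fall was the smaller one.

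Agt, the precursor of angiotensin (chromosome 8, 124556587 to 124569706), had the largest fall of any gene at the floor. It stood at 24.2, 24.2 and 24.2 CPM alone, 1.15, 1.76 and 1.42 CPM in sgPrrx1 coculture and 2.06, 2.53 and 2.82 CPM in WT coculture. The alone libraries were all but equal, and the sgPrrx1 level was 16.6-fold lower. Ptgds, which makes prostaglandin D2 and was listed with these genes (chromosome 2, 25466709 to 25470110), had 52.3, 52.2 and 52.0 CPM alone and 6.97, 6.59 and 6.19 CPM in sgPrrx1 coculture, a 7.94-fold fall (adjusted p 1.14e-11 in edgeR). The proteases of the first complement component fell less, with log2 fold changes of -0.92 for C1s1, -0.89 for C1ra and -0.60 for their relative C1rl. Members under the floor were mixed: Hp (haptoglobin) fell, with a log2 fold change of -1.19, C4b rose by 0.87, and Cfb, Cd59a and Serping1 did not pass the test.

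Basement membrane and fibronectin genes were the next group to fall. Of 27 listed, 23 were tested and 14 were at the floor, of which 12 fell and 2 rose, against 30.2% and 26.6% of all genes at the floor, with a median log2 fold change of -0.74. Fn1, fibronectin (chromosome 1, 71585473 to 71653280), stood at 4656, 4839 and 4812 CPM alone, 5269, 5162 and 5357 CPM with WT and 2661, 2753 and 2649 CPM with sgPrrx1 fibroblasts. Its level was above that of cells alone with WT fibroblasts and below it with sgPrrx1 fibroblasts, with no overlap. The sgPrrx1 libraries were 1.77-fold below alone (log2 -0.83, SE 0.0195, adjusted p 1.29e-10 in edgeR).

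The laminin chains Lama5, Lamb2 and Lamc1, which can assemble into 1 trimer, fell together, with log2 fold changes of -0.73, -0.93 and -0.74. Perlecan (Hspg2, chromosome 4, 137468751 to 137570630) had 784, 760.3 and 728 CPM alone and 388, 401 and 390.1 CPM in sgPrrx1 coculture. Col18a1, the source of endostatin (chromosome 10, 77052178 to 77166530), was measured at 948, 945 and 945 CPM alone and 558, 556 and 543 CPM in sgPrrx1 coculture. Both were clearly separated from cells alone. The type IV collagen genes Col4a1, Col4a2 and Col4a5 had log2 fold changes of -0.52, -0.58 and -1.28. Each of these genes except Col4a5 was also lower in sgPrrx1 than in WT coculture in edgeR, where Col4a5 had an adjusted p of 0.0961.

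Thbs2, which encodes thrombospondin 2, a matricellular protein that restrains vessel growth (chromosome 17, 14665500 to 14694262), differed widely between the cocultures. It stood at 135, 135 and 132 CPM alone, 120.0, 119.9 and 115 CPM with WT and 27.5, 30.4 and 28.1 CPM with sgPrrx1 fibroblasts. WT coculture was slightly under cells alone, and sgPrrx1 coculture was far under both. The log2 fold change was -2.23 (SE 0.0394, adjusted p 1.39e-11 in edgeR) against alone and -2.04 (SE 0.0392) against WT coculture. The related Thbs1 rose, by 0.17 on the log2 scale. Col16a1, a fibril-associated collagen outside the list, had 126, 135 and 131 CPM alone and 53.95, 48.1 and 50.04 CPM in sgPrrx1 coculture, a 2.58-fold fall. Of the 10 integrins at the floor, the receptors for these proteins, 7 fell and 2 rose, against 30.2% and 26.6% of all genes at the floor, from -0.91 for Itga8 to 0.52 for Itgb7, with a median of -0.15.

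**Figure D2:**
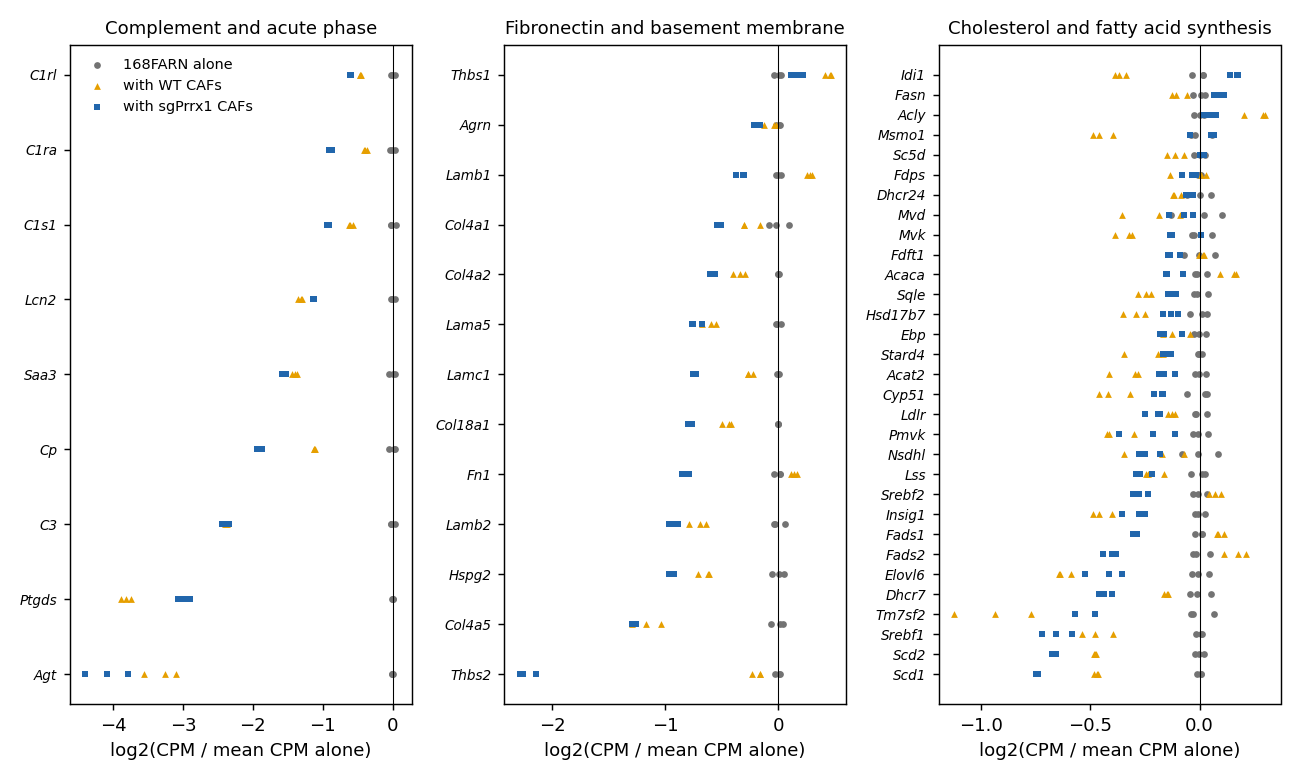
Log2 of each library's CPM over the mean CPM of cells alone (horizontal axis) for members at 10 CPM or more alone of the lists of complement and acute phase (9 of 9), fibronectin and basement membrane (13 of 14), and cholesterol and fatty acid synthesis genes (31 of 33), 1 gene a row. Grey circles are the 3 alone libraries, orange triangles WT coculture and blue squares sgPrrx1 coculture. The 9 complement and acute phase genes lie left of cells alone in both cocultures, while for Fn1, Lamb1, Fads1 and Fads2 the blue squares lie left of 0 and the orange triangles right of it.

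Genes of cholesterol and fatty acid synthesis fell by smaller amounts. All 33 members tested were at the floor; 24 fell, 2 rose and 7 did not pass, where 30.2% of all genes at the floor fell and 26.6% rose, with a median log2 fold change of -0.18. The stearoyl-CoA desaturases, which make monounsaturated fatty acids, led the list. Scd1 (chromosome 19, 44394450 to 44407709) was measured at 329, 333 and 333 CPM alone, 199, 198 and 199 CPM in sgPrrx1 coculture and 237, 239.8 and 240.1 CPM in WT coculture. Scd2 (chromosome 19, 44293676 to 44306864) stood at 1228, 1212 and 1246 CPM alone, 774, 770.2 and 779 CPM in sgPrrx1 coculture and 882, 879.9 and 885 CPM in WT coculture. For both genes sgPrrx1 coculture was lowest and cells alone highest, with no overlap, and the log2 fold changes from alone were -0.74 (SE 0.0225) and -0.67 (SE 0.0156).

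The master regulators of the pathway, Srebf1 and Srebf2, fell by 0.65 and 0.27 on the log2 scale. Among cholesterol enzymes, Sqle, which makes the epoxide of squalene, had a log2 fold change of -0.13 and Dhcr7, which acts at the last step, of -0.43. Fads2 (chromosome 19, 10062765 to 10101503), a desaturase of polyunsaturated fatty acids, had 76.3, 72.1 and 72.8 CPM alone, 83.3, 79.6 and 85.4 CPM with WT and 55.8, 56.5 and 54.2 CPM with sgPrrx1 fibroblasts. WT coculture was above and sgPrrx1 coculture below cells alone. Idi1 and Fasn rose, by 0.16 and 0.09, and Fasn lost its call without alone replicate 3 or sgPrrx1 replicate 2 (adjusted p 0.0782 and 0.0703 in edgeR). Sqle and Idi1 were each higher in sgPrrx1 than in WT coculture in edgeR, and Scd1, Scd2, Srebf1 and Srebf2 lower, so its members went both ways between the cocultures. With sgPrrx1 rather than WT fibroblasts 13 members were higher and 12 lower, against 33.4% and 36.7% of the genes at the floor. Of the 33 members 22 had a promoter window, with 27 windows in all. None of these held TCACCCCAC, 1 spelling of a sterol regulatory element, on either strand, against 0.551% of all windows. At so low a share 27 windows are too few to show a difference, so nothing is read from the 0.

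Outside these lists, the other large falls were in genes of varied function. Rassf4, a Ras association domain gene, was measured at 11.6, 10.2 and 11.1 CPM alone and 1.17, 1.27 and 1.22 CPM in sgPrrx1 coculture. Vnn3, a vanin gene, stood at 14.9, 15.6 and 14.5 CPM alone and 1.75, 1.72 and 1.79 CPM in sgPrrx1 coculture. P2rx1, an ATP-gated ion channel (chromosome 11, 72999056 to 73015200), had 32.2, 30.7 and 31.7 CPM alone and 4.80, 5.30 and 5.09 CPM in sgPrrx1 coculture. Each sgPrrx1 library lay far below each library of cells alone, and P2rx1 stood 6.22-fold lower. WT coculture had lower levels still for the 3 genes, with means of 0.746, 1.10 and 2.18 CPM, and sgPrrx1 exceeded WT coculture by 0.76, 0.69 and 1.21 on the log2 scale (adjusted p 0.03, 0.000743 and 8.78e-08 in edgeR). Crocc2, a gene related to the ciliary rootlet, had a log2 fold change of -2.99 from alone, and Ip6k3, an inositol hexakisphosphate kinase, of -1.94.

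Sparcl1, a matricellular relative of SPARC (chromosome 5, 104079108 to 104114088), was measured at 22.7, 22.8 and 22.03 CPM alone, 6.62, 6.10 and 7.47 CPM with WT and 3.44, 3.93 and 3.28 CPM with sgPrrx1 fibroblasts. Here sgPrrx1 coculture was lowest, 6.34-fold below cells alone, and was lower than WT coculture by a log2 difference of -0.91 (adjusted p 6.44e-06 in edgeR). Notch1, the receptor, stood at 12.7, 12.9 and 12.0 CPM alone and 4.50, 3.74 and 4.15 CPM in sgPrrx1 coculture, a 3.04-fold fall, and was at 6.27, 6.03 and 6.80 CPM in WT coculture. Of the 10 Wnt and Notch genes at the floor 6 fell and 1 rose, against 30.2% and 26.6% of all genes at the floor, the rise being the ligand Dll1 (0.82).

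Tlr2, a receptor for bacterial lipoproteins (chromosome 3, 83836272 to 83841824), had 151, 151 and 150.4 CPM alone, 62.1, 60.1 and 62.2 CPM in sgPrrx1 coculture and 30.0, 28.1 and 27.5 CPM in WT coculture. The sgPrrx1 libraries lay between the other groups, with a log2 fold change of -1.30 against alone and a difference of 1.10 from WT coculture (adjusted p 1.94e-09 in edgeR). Blnk, an adaptor best known from B cells, had the same order, with means of 100.1 ± 3.27 CPM alone, 41.4 ± 2.15 CPM in sgPrrx1 coculture and 19.6 ± 0.843 CPM in WT coculture (SD, n = 3). Cbr2, a carbonyl reductase, and Dio2, which activates thyroid hormone, also lay in between, with log2 fold changes from alone of -1.81 and -1.96. Nptx1, a neuronal pentraxin, went from 172 ± 2.69 to 61.9 ± 0.916 CPM (SD, n = 3), and its difference from WT coculture missed the threshold (adjusted p 0.125 in edgeR).

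**Figure D3:**
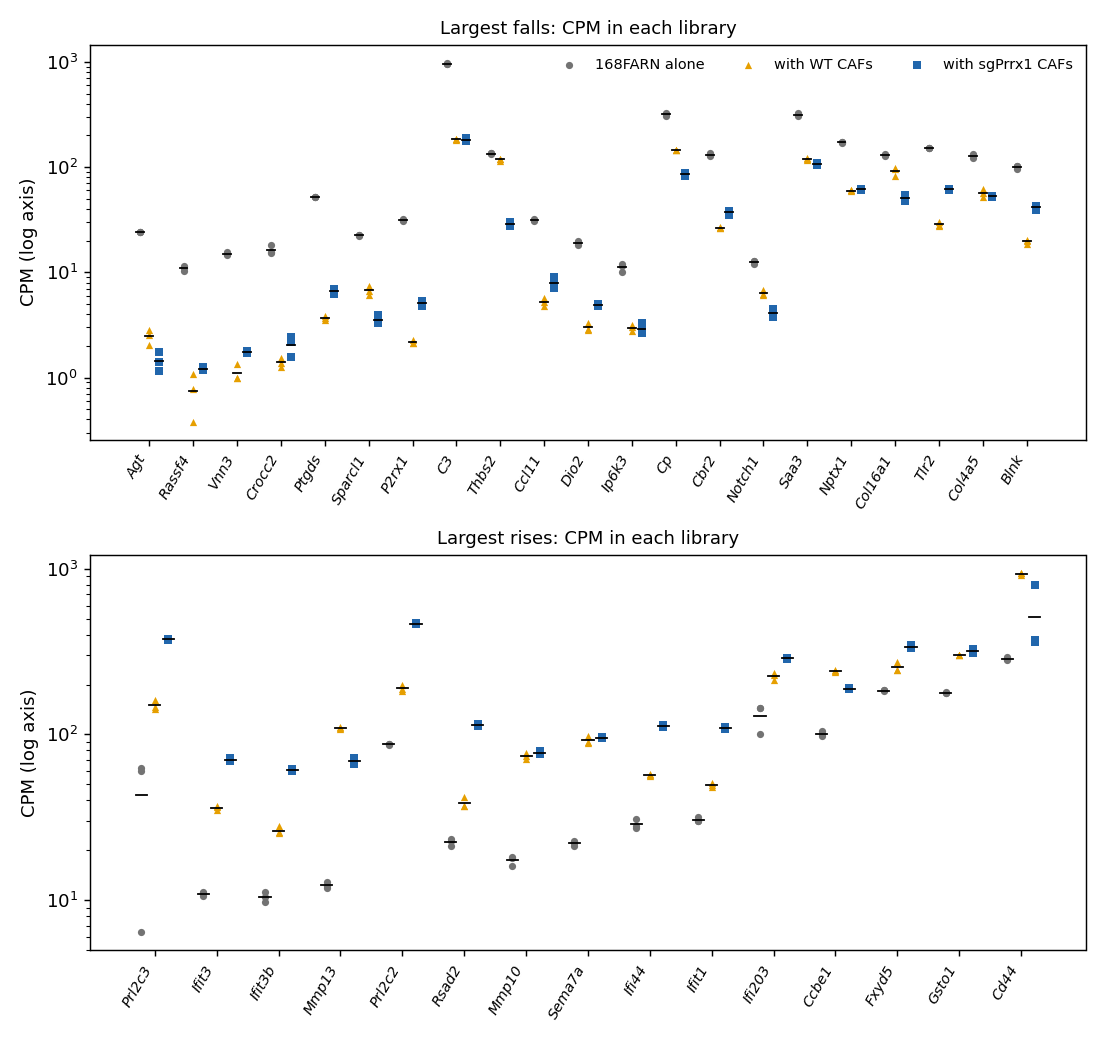
CPM in each library (vertical log axis) of the genes with the largest falls (upper panel) and rises (lower panel) among those at 10 CPM or more, and at 100 CPM or more, in cells alone. Grey circles are the 3 alone libraries, orange triangles WT coculture, blue squares sgPrrx1 coculture and bars the mean of 3 libraries. C3 overlaps between the cocultures, Thbs2 is far lower in sgPrrx1 than in WT coculture, and the interferon-stimulated genes Ifit3, Rsad2 and Ifit1 are highest in sgPrrx1 coculture.

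Interferon-stimulated genes had the largest rise of the lists examined, which were chosen with earlier results of these data known. Of 52 listed, all were tested and 44 were at the floor. Of these 42 rose, 18 of them at least 2-fold, none fell, and Irf1 and Ifi27 did not pass (adjusted p 0.243 and 0.197 in edgeR). Of all genes at the floor 26.6% rose, 0.656% at least 2-fold, and 30.2% fell. The median log2 fold change was 0.82 against -0.01 over all genes at the floor. Promoters of 4 of the 5 members at the floor with the largest rises are shown, without that of Ifit3b, a near-identical copy of Ifit3. They are shown because the interferon-stimulated response element, the site bound by STAT and IRF factors, is a known sequence. The windows run from 250 bases before to 50 after the RefSeq start site in GRCm38.p6, 5′ to 3′ on the strand of the gene, and capitals mark the core of that element, GAAANN followed directly by GAAA, on either strand. They are Ifit3 (chr19:34583279-34583578, plus strand), Rsad2 (chr12:26456403-26456702, minus strand), Ifi44 (chr3:151749861-151750160, minus strand) and Ifit1 (chr19:34640639-34640938, plus strand).
Ifit3: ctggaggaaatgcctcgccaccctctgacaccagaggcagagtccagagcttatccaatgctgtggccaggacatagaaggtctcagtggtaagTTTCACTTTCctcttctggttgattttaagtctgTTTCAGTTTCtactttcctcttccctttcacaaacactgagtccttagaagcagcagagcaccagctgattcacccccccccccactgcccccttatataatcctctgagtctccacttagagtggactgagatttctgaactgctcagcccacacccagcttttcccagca
Rsad2: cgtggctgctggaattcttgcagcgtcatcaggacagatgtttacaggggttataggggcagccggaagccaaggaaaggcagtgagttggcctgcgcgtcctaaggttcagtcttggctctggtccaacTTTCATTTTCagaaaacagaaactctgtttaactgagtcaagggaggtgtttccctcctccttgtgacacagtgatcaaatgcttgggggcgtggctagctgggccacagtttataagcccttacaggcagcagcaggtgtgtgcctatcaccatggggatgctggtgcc
Ifi44: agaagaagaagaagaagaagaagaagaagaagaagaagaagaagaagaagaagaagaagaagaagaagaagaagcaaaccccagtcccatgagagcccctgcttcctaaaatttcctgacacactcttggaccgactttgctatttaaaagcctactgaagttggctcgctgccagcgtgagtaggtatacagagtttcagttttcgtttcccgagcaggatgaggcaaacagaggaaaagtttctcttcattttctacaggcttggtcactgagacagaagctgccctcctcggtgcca
Ifit1: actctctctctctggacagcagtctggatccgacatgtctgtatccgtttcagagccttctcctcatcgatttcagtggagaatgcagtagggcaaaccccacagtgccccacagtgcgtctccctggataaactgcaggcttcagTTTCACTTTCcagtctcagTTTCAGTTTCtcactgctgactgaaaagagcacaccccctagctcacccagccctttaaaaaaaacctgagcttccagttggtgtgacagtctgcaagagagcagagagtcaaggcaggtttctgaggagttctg
The window of Ifi44 holds no match to these letters. Of the 44 members 33 had a window, with 39 windows in all, and 20 of them held the letters (51.3%), against 3.44% of the 32851 windows of all genes. A match is a description of the sequence and not a measured site.

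Ifit1 encodes a protein that binds foreign RNA, and Ifit3 a protein of the same family. Ifit3 (chromosome 19, 34583119 to 34588982) was measured at 11.2, 11.0 and 10.6 CPM alone, 35.1, 36.5 and 36.7 CPM with WT and 68.7, 72.5 and 69.3 CPM with sgPrrx1 fibroblasts. The levels of the 3 groups did not overlap, and sgPrrx1 coculture was highest, 6.41-fold above cells alone (log2 2.68, SE 0.0367, adjusted p 2.44e-12 in edgeR). Its neighbour Ifit3b is a near-identical copy, so the split of reads between the genes is uncertain, and Ifit3b had a log2 fold change of 2.53. Rsad2, which encodes the antiviral enzyme viperin (chromosome 12, 26442743 to 26456452), stood at 21.3, 23.2 and 22.6 CPM alone, 36.8, 41.6 and 36.7 CPM with WT and 116, 115 and 112 CPM with sgPrrx1 fibroblasts. Ifit1 (chromosome 19, 34640889 to 34650009) had 29.9, 31.7 and 30.0 CPM alone, 48.1, 49.3 and 51.2 CPM with WT and 109, 108 and 111 CPM with sgPrrx1 fibroblasts. Both had the same order as Ifit3, with rises from alone of 5.11-fold and 3.58-fold. Ifi44 had a log2 fold change of 1.97.

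Among regulators of the pathway, Irf7, which amplifies interferon production (chromosome 7, 141263183 to 141266499), was measured at 52.3, 49.97 and 52.0 CPM alone, 68.3, 67.9 and 69.2 CPM with WT and 173, 177 and 171 CPM with sgPrrx1 fibroblasts. Usp18, the feedback inhibitor of the interferon receptor, stood at 45.8, 44.9 and 44.3 CPM alone and 127, 128 and 129 CPM in sgPrrx1 coculture. Both were clearly above cells alone, by 3.37-fold and 2.85-fold. The transcription factor subunits Stat2 and Irf9 rose less, by 0.54 (SE 0.0395) and 0.36 (SE 0.0299) on the log2 scale. The sensors Zbp1 and Ddx58 rose by 1.75 and 0.56.

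Isg15, a ubiquitin-like protein (chromosome 4, 156199424 to 156200818), had 80.1, 75.3 and 76.4 CPM alone, 66.8, 76.0 and 69.1 CPM with WT and 159, 161 and 163 CPM with sgPrrx1 fibroblasts. WT coculture was slightly lower than cells alone, with a log2 fold change of -0.13 (adjusted p 0.0262 in edgeR), and sgPrrx1 coculture was 2.08-fold above alone. Oasl1, a member of the oligoadenylate synthetase family, was measured at 17.0, 16.4 and 16.3 CPM alone, 17.6, 18.4 and 18.1 CPM with WT and 55.4, 55.0 and 52.0 CPM with sgPrrx1 fibroblasts. It too stood out in sgPrrx1 coculture, with a difference from WT coculture of 1.58 (SE 0.0371, adjusted p 2.06e-10 in edgeR). Against WT coculture, 41 of the 44 members were higher in sgPrrx1 coculture and 1, Irf1, was lower, with 33.4% of all genes at the floor higher. From cells alone to WT coculture, 37 members rose and 4 fell, with a median log2 fold change of 0.35, beside 33.8% of all genes at the floor higher and 37.9% lower. All 8 members under the floor rose as well, such as Iigp1, an immunity-related GTPase, from 3.14 to 26.2 CPM. Class I antigen presentation genes, many of them also inducible by interferon, moved little: of 16 at the floor 6 rose and 2 fell, against 26.6% and 30.2% of all genes at the floor, from -0.38 for Tapbp to 0.53 for the immunoproteasome subunit Psmb10, with a median of 0.06. The number that fell was 1 when alone replicate 3 or any of the sgPrrx1 replicates was left out.

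**Figure D4:**
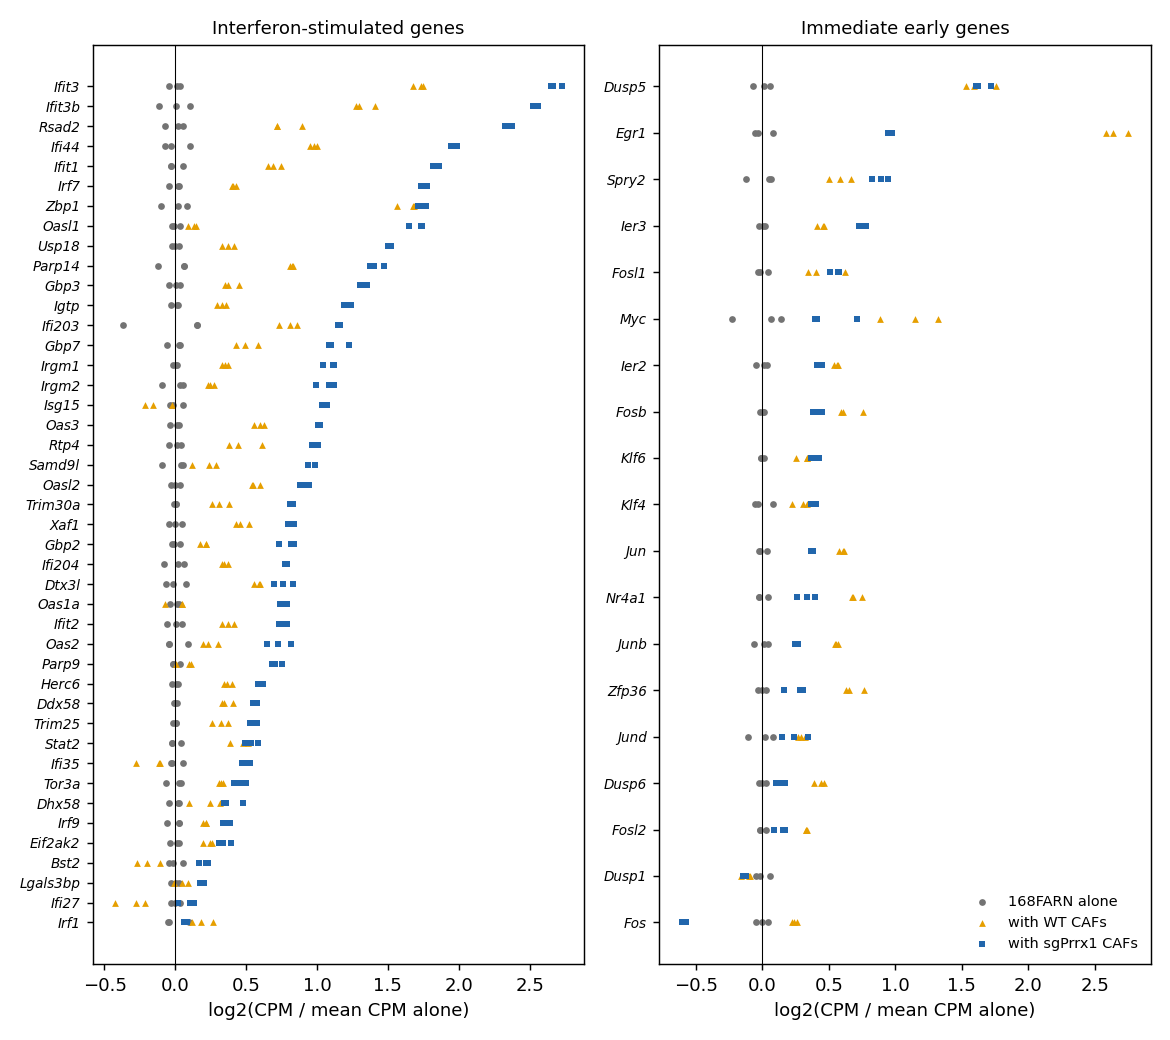
Log2 of each library's CPM over the mean CPM of cells alone (horizontal axis) for 43 of the 44 interferon-stimulated genes and the 19 immediate early genes at 10 CPM or more alone, 1 gene a row. Grey circles are the 3 alone libraries, orange triangles WT coculture and blue squares sgPrrx1 coculture. Blue squares lie right of the orange triangles for most interferon-stimulated genes and left of them for Egr1, Myc and Fos.

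Immediate early genes, whose products answer growth factor signals within minutes, were also raised. Of 25 listed and tested, 19 were at the floor, of which 17 rose and 2 fell, against 26.6% and 30.2% of all genes at the floor, with a median log2 fold change of 0.39. Dusp5, a phosphatase of nuclear ERK (chromosome 19, 53529145 to 53541809), stood at 12.3, 11.2 and 11.9 CPM alone, 36.1, 38.9 and 36.3 CPM in sgPrrx1 coculture and 35.6, 34.1 and 39.9 CPM in WT coculture. The cocultures overlapped, and the rise from alone was 3.14-fold (log2 1.65, SE 0.0628). Ier3, a stress response gene, had 481, 466 and 475 CPM alone and 811, 786 and 814 CPM in sgPrrx1 coculture.

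Egr1, a zinc finger transcription factor, was measured at 10.7, 11.5 and 10.5 CPM alone, 67.7, 65.4 and 73.3 CPM with WT and 21.2, 21.4 and 20.9 CPM with sgPrrx1 fibroblasts. It rose from alone by 0.96 and was lower than in WT coculture, with a log2 difference of -1.70 (SE 0.0473, adjusted p 8.91e-10 in edgeR). The Fos gene itself fell below cells alone: it stood at 85.9, 83.3 and 80.6 CPM alone, 98.1, 99.8 and 97.2 CPM with WT and 54.8, 56.1 and 54.8 CPM with sgPrrx1 fibroblasts. Its log2 fold change of -0.59 from alone contrasted with 0.55 for its relative Fosl1 and 0.42 for Fosb. Dusp1 was the other gene of the list that fell (-0.13). Of the 19 members 15 had a promoter window, with 15 windows in all. None of these held the AP-1 letters TGANTCA, against 7.81% of all windows. At that share 0 matches in 15 windows is not unusual, so nothing is read from it.

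The EGF family ligands Areg, Hbegf and Ereg rose in both cocultures. Areg (chromosome 5, 91139599 to 91148432), amphiregulin, had 32.1, 32.8 and 30.9 CPM alone, 81.5, 82.9 and 83.3 CPM in sgPrrx1 coculture and 74.0, 80.5 and 79.8 CPM in WT coculture. Hbegf and Ereg had log2 fold changes from alone of 1.01 and 0.81 in sgPrrx1 and 1.14 and 0.34 in WT coculture, and Areg of 1.37 in sgPrrx1 coculture. The sgPrrx1 and WT groups differed little for Areg, with an adjusted p of 0.0812 in edgeR. Of the 15 growth factor and receptor genes at the floor 6 rose and 6 fell, against 26.6% and 30.2% of all genes at the floor, the falls including the receptors Met (-0.24) and Fgfr2 (-0.45) and the ligand Kitl (-0.44). Met was above cells alone in WT coculture, at 241 CPM, and below it in sgPrrx1 coculture, at 189 against 224 CPM.

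Of 10 cytokines and chemokines at the floor 4 rose and 5 fell, against 26.6% and 30.2% of all genes at the floor. Lif, a cytokine of the interleukin 6 family, was measured at 94.99, 92.0 and 95.05 CPM alone and 200.3, 204 and 199 CPM in sgPrrx1 coculture. Il11, of the same family, stood at 15.9, 12.6 and 15.1 CPM alone and 39.6, 39.2 and 42.5 CPM in sgPrrx1 coculture. Both were raised and did not overlap with cells alone, with log2 fold changes of 1.10 and 1.48. Cx3cl1, or fractalkine, had 60.9, 56.3 and 59.2 CPM alone and 21.3, 21.0 and 21.0 CPM in sgPrrx1 coculture, a 2.79-fold fall. Csf1, the growth factor of macrophages, was measured at 268, 253 and 255 CPM alone, 358, 354 and 371 CPM with WT and 188, 187 and 190.4 CPM with sgPrrx1 fibroblasts. It was highest with WT fibroblasts and lowest with sgPrrx1 fibroblasts, 1.37-fold below alone.

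In sgPrrx1 coculture the chemokine Ccl2 was a little above cells alone and Ccl7 a little below, and both passed the test. Both were well under cells alone in WT coculture. Ccl2 (chromosome 11, 82035577 to 82037452) stood at 1437, 1354 and 1396 CPM alone, 1567, 1598 and 1584 CPM in sgPrrx1 coculture and 654, 679 and 724 CPM in WT coculture. Ccl7 had log2 fold changes from alone of -0.23 in sgPrrx1 and -1.60 in WT coculture. Cxcl1 followed the order of Ccl7, with -0.09 and -0.96. Its fall in sgPrrx1 coculture lost the call when any replicate but alone replicate 1 was left out (adjusted p 0.0532 to 0.122 in edgeR). The eosinophil chemoattractant Ccl11, outside the list, had 30.9, 32.4 and 31.3 CPM alone and 8.97, 7.99 and 7.06 CPM in sgPrrx1 coculture, a 3.95-fold fall.

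Matrix proteases at the floor numbered 16 with their inhibitors, and 9 rose and 7 fell, against 26.6% and 30.2% of all genes at the floor. Mmp13, a collagenase (chromosome 9, 7272514 to 7283333), was measured at 12.1, 11.9 and 12.9 CPM alone, 66.5, 70.1 and 72.1 CPM in sgPrrx1 coculture and 108, 110.3 and 109 CPM in WT coculture. Mmp10, a stromelysin (chromosome 9, 7502342 to 7510242), stood at 18.0, 18.1 and 16.1 CPM alone, 76.9, 78.9 and 76.7 CPM in sgPrrx1 coculture and 70.8, 76.9 and 73.8 CPM in WT coculture. Both rose strongly in either coculture, and sgPrrx1 was lower than WT for Mmp13 (-0.65, adjusted p 1.21e-07 in edgeR) and not shown to differ for Mmp10 (0.07, SE 0.0437, adjusted p 0.188). Plau, the urokinase that activates plasminogen, rose by 1.49, and its receptor Plaur by 0.65. Mmp9, a gelatinase (chromosome 2, 164940326 to 164955850), fell, from 331, 325 and 324 CPM alone to 176, 175 and 173 CPM in sgPrrx1 coculture.

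Genes of the TGF-beta pathway moved in both directions. The feedback inhibitors Smad7 and Skil rose by 1.19 and 0.85, while the receptors Tgfbr3 (-0.73), Tgfbr2 (-0.26) and Tgfbr1 (-0.11) fell. Tgfbr1 lost its call without alone replicate 2 or sgPrrx1 replicate 3 (adjusted p 0.0677 and 0.0866 in edgeR). Of the 20 pathway genes at the floor 6 rose and 8 fell, against 26.6% and 30.2% of all genes there. Id2, a target of the related BMP signal, fell by 0.68. Of 17 YAP and TEAD genes at the floor 8 rose and 4 fell, against the same shares, and the rises were led by Nt5e and Ankrd1. Ankrd1 was measured at 10.9, 10.3 and 10.3 CPM alone, 33.4, 34.3 and 34.4 CPM in sgPrrx1 coculture and 67.7, 74.8 and 67.6 CPM in WT coculture, in that order with no overlap. Of the 15 promoter windows of this list, 53.3% held the TEAD letters GGAATG, against 14.7% of all windows.

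Actin and contractile genes at the floor rose in 13 of 19 cases and fell in 2, beside 26.6% and 30.2% of all genes at the floor, with a median log2 fold change of 0.19, from -0.13 for Cald1 to 0.48 for the focal adhesion gene Zyx. Of 12 mesenchymal state genes 6 rose and 4 fell, beside 26.6% and 30.2% of all genes at the floor. Vim (0.27), Twist1 (0.31), Twist2 (0.43), Zeb2 (0.50), Snai1 (0.35) and Prrx1 rose, and Fn1, Foxc1 (-0.42), S100a4 (-0.35) and Tcf4 (-0.15) fell. Twist2 (chromosome 1, 91801461 to 91848034) stood at 41.1, 41.4 and 42.1 CPM alone, 40.6, 39.2 and 37.5 CPM with WT and 56.1, 55.7 and 55.8 CPM with sgPrrx1 fibroblasts. It was thus highest in sgPrrx1 coculture, by 0.51 over WT coculture (adjusted p 1.61e-07 in edgeR). Cd44, a receptor for hyaluronan, had 281, 285 and 291 CPM alone, 369.5, 798 and 360.1 CPM in sgPrrx1 coculture and 942, 923 and 941 CPM in WT coculture. Its sgPrrx1 replicate 2 was far above the other libraries of that group, and the rise from alone (log2 0.83, SE 0.240, adjusted p 0.0141 in edgeR) was 0.35 without that library.

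Genes of the cell cycle had small changes. Of 20 S phase genes at the floor 16 rose and none fell, beside 26.6% and 30.2% of all genes at the floor, with a median log2 fold change of 0.15. Pcna, the sliding clamp of DNA replication, was measured at 404, 423 and 407 CPM alone, 500.1, 508 and 511 CPM in sgPrrx1 coculture and 328, 348 and 337 CPM in WT coculture. Cells with sgPrrx1 fibroblasts had the highest level and those with WT fibroblasts the lowest. Of 21 genes of G2 and M phase 3 rose and 10 fell, against the same shares, with a median of -0.07. Mki67, the proliferation marker, stood at 277, 292 and 284 CPM alone, 224, 224 and 219 CPM in sgPrrx1 coculture and 296, 278 and 308 CPM in WT coculture, and fell by 0.35 from alone. Of 15 p53 targets 1 rose and 9 fell, again against those shares, with a median of -0.11, led by Sesn1 (-0.84) and the death receptor gene Fas (-0.53), while Cdkn1a, Mdm2 and Btg2 did not pass.

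**Figure D5:**
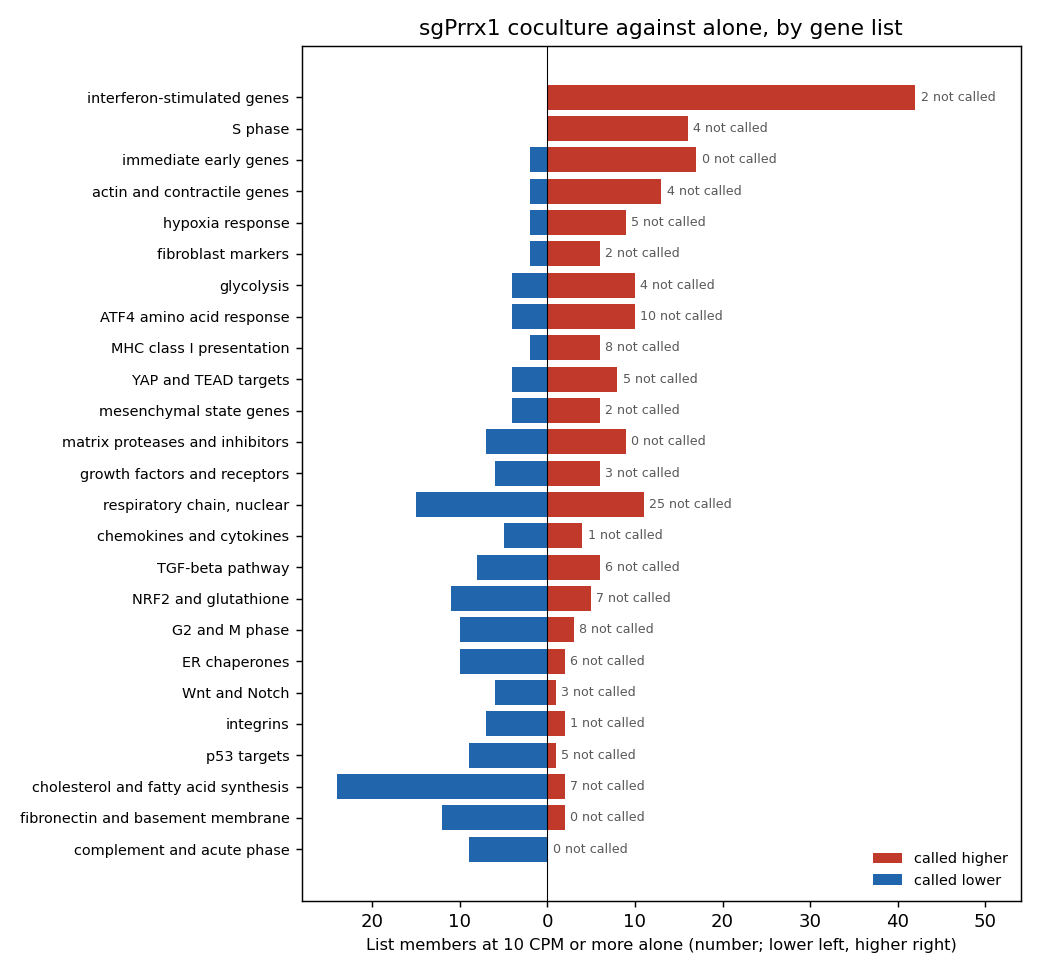
Number of members at 10 CPM or more alone of each gene list that rose (red, to the right) or fell (blue, to the left) in sgPrrx1 coculture against cells alone, with the number that did not pass beside each bar; lists with under 5 members at the floor are left out. Interferon-stimulated genes and S phase genes have no blue bar, and complement and acute phase genes no red bar.

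Other large rises among the genes at the floor were Sema7a, a membrane semaphorin (chromosome 9, 57939596 to 57962865), and genes of the placental prolactin family. Sema7a had 21.2, 22.2 and 22.9 CPM alone, 95.1, 95.4 and 96.2 CPM in sgPrrx1 coculture and 97.7, 90.2 and 88.3 CPM in WT coculture. It rose 4.33-fold, and its difference from WT coculture missed the threshold (adjusted p 0.279 in edgeR). Prl2c2, or proliferin, was measured at 87.7, 87.9 and 86.6 CPM alone, 184, 189 and 198 CPM with WT and 462, 468 and 468 CPM with sgPrrx1 fibroblasts, and Prl2c3 at 63.0, 60.4 and 6.38, 146, 143 and 162 and 371, 379 and 373 CPM in the same order of groups. These are near-identical copies, Prl2c3 was far lower in alone replicate 3 than in the other alone libraries, and the values of each are uncertain. Without that library the log2 fold change of Prl2c3 was 2.60 in place of 3.11. Among the genes at 100 CPM or more alone, Ccbe1, needed for lymphatic vessel growth, had a log2 fold change of 0.90, the ion transport regulator Fxyd5 of 0.88, and the glutathione transferase Gsto1 of 0.84. Ifi203, of an interferon-inducible family with similar copies, had 1.15 (SE 0.110), with alone libraries at 144, 144 and 100.1 CPM and sgPrrx1 libraries at 286, 289 and 287 CPM.

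Below the floor lay 4396 tested genes, of which 1047 rose (23.8%) and 501 fell (11.4%), 700 (15.9%) and 165 (3.75%) of them at least 2-fold. In this range 260 tested genes had 0 counts in all 3 alone libraries, and 179 of them rose. They include genes that most cells use, such as Slc25a4, so such a gene is only listed at 0 in cells alone and no level is read from it. Lama4, a laminin chain under the floor, stood at 5.199, 5.75 and 6.30 CPM alone, 1.99, 1.72 and 1.30 CPM with WT and 0.125, 0.251 and 0.118 CPM with sgPrrx1 fibroblasts, lowest in sgPrrx1 coculture with no overlap. Lox, which crosslinks collagen, had 0.288, 0.0935 and 0.268 CPM alone, 4.42, 5.53 and 5.18 CPM in sgPrrx1 coculture and 51.2, 52.9 and 54.1 CPM in WT coculture, and it rose, as Dcn and Col1a2 did.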

How the data were processed

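RNA of sorted cancer cells was sequenced as 100 bp paired reads. The authors deposited read counts per gene symbol, as whole numbers, and their processing notes name Trimmomatic, STAR, HTSeq and mm10. Whether counting used strand is not given in the sources used here. The study's supplement names a batch correction with ComBat-seq, in a passage on RNA of murine fibroblasts and human CAFs. It does not say whether these libraries were included. An identical nonzero count was found across the 9 libraries for 72 genes. The table of the other cancer line was not used. Of 24455 symbols 99.39% matched RefSeq annotation of GRCm38.p6 (mm10), which gave the coordinates, counted from 1, and the promoter windows; 27 symbols turned into dates are not named.

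The analysis used edgeR 4.0.16 under R 4.3.3. Genes passing filterByExpr (13540) in the 9 libraries of 168FARN were scaled by TMM and fitted with a mean per group, and contrasts were tested two-sided by the quasi-likelihood test, with p-values adjusted by Benjamini-Hochberg over all genes tested and a threshold of 0.05. CPM is the count scaled to a common library size by the TMM-scaled total, SE is on the log2 scale, and ± is SD. Tested on simulated counts of 13367 genes with 200 changed 2-fold between sgPrrx1 and alone, the fit recovered 188 and called 8 others. With totals of 48315037 to 68933002, 3 counts correspond to 0.0426 to 0.0626 CPM.

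Among genes at 10 CPM or more alone, past the threshold and without overlap between the groups, the 15 largest falls and 10 largest rises are named, and at 100 CPM or more the 10 largest falls and 5 largest rises. Any member of the gene lists may be named, and Prrx1 always. A few list members count in the totals and are not reported here by name. The comparison, the members, the lists and this rule were chosen with earlier results of these data known. Same-numbered libraries of different groups did not deviate together (correlation -0.00870 on average, -0.0734 to 0.0627), so the numbers were not taken as pairs. Alternatives were DESeq2 1.42.0, RLE scaling, library totals, other filters and floors, a replicate block, fewer groups and each replicate left out.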

Additional observations from a re-analysis of the deposited data

How the results depend on the processing

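The counts of genes that rose and fell at the floor stayed within 1.5 times of 2430 and 2757 under each alternative. They were 2626 and 2543 in DESeq2, 2623 and 2593 with RLE scaling and 2071 and 3131 with library totals, so which direction had more genes depended on the scaling, while the median shift from it was at most 0.02 on the log2 scale. With the replicate number as a block they were 2440 and 2778, and the block changed no call of the genes chosen by size of change. Leaving out 1 replicate gave 2100 to 2201 that rose, 2467 to 2543 that fell, 57 to 63 that rose and 53 to 60 that fell at least 2-fold, and 5939 to 6086 of all genes. An added threshold of 2-fold left 981 of all genes tested. The 60 rises of at least 2-fold became 34 at a floor of 20 CPM and 98 with the floor on the mean of 9 libraries.

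Each of the 37 genes named by size of change or as Prrx1 kept its direction and side of the threshold in its 13 alternatives. The complement, basement membrane and immediate early counts did not change under other fits or with replicates left out, interferon-stimulated genes that rose numbered 42 to 43, cholesterol genes that fell 22 to 24 and S phase genes that rose 13 to 16. The counts of 0 (complement genes higher, interferon-stimulated and S phase genes lower) were 0 as well at an unadjusted p under 0.05 in edgeR and in DESeq2. Of the other list members named here, 6 changed call. Cxcl1 lost it in 6 alternatives (adjusted p up to 0.122), Fasn in 3, and Tgfbr1 in 2 when a replicate was left out. Irf1 passed without alone replicate 2 (adjusted p 0.0392), Mdm2 with library totals (adjusted p 0.0122) and Igf2 in 4 alternatives, the replicate block among them (adjusted p 2.93e-05 in edgeR). Respiratory chain genes that rose numbered 4 to 16 against 11, glycolysis genes that fell 1 to 6 against 4, chaperones that rose 0 to 2 against 2, and class I presentation genes that fell 1 to 3, hypoxia genes that fell 1 to 2 and cholesterol genes that rose 1 to 2, each against 2. The causes were not tested.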

Other observations

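Metabolic and stress genes at 10 CPM or more alone are given here for sgPrrx1 coculture against cells alone. Of all genes at this floor 26.6% rose and 30.2% fell, the shares to set beside each count. Of 18 glycolysis genes 10 rose and 4 fell, with a median log2 fold change of 0.10. The number that fell was 1 without sgPrrx1 replicate 1 and 2 without alone replicate 1 or sgPrrx1 replicate 3. Gapdh had 1525, 1560.0 and 1488 CPM alone, 1833, 1931 and 1843 CPM in sgPrrx1 coculture and 2150.2, 2097 and 1963 CPM in WT coculture. The sgPrrx1 libraries lay between the other groups without overlap. Of 16 hypoxia response genes 9 rose and 2 fell, with a median of 0.16, and 1 fell without alone replicate 1 or 2 or sgPrrx1 replicate 2 or 3. Ndrg1 led them, at 328, 328 and 332 CPM alone, 532, 529 and 523 CPM in sgPrrx1 coculture and 540.4, 522 and 524 CPM in WT coculture, and the cocultures overlapped. Of the promoter windows of that list 18.2% held the letters GACGTG, the core of the hypoxia response element, against 6.38% of all windows. Hif1a, the oxygen-regulated transcription factor, rose by 0.22 from alone and was lower than in WT coculture, with a log2 difference of -0.57 (adjusted p 2.20e-08 in edgeR). Of 51 nuclear genes of the respiratory chain 11 rose and 15 fell, close to those shares, with a median of -0.01, from -0.28 for Sdha to 0.21 for Ndufa3. The rises numbered 4 without alone replicate 3, 6 without sgPrrx1 replicate 2 and 7 without alone replicate 1 or sgPrrx1 replicate 3. Between sgPrrx1 and WT coculture 39 of the 51 were higher and 5 lower, with 33.4% of all genes at the floor higher.

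Of 23 genes of the NRF2 and glutathione list, which protect cells from oxidants, 11 fell and 5 rose, against 30.2% and 26.6% of all genes at the floor. Gstm1, a glutathione transferase with similar copies, was measured at 96.3, 96.0 and 94.5 CPM alone and 41.5, 42.2 and 44.2 CPM in sgPrrx1 coculture, a 2.24-fold fall, and Gclc, which makes the first step of glutathione synthesis, had a log2 fold change of -0.48. Tkt, an enzyme of the pentose phosphate pathway, stood at 152, 151 and 152 CPM alone, 171, 168 and 156 CPM with WT and 99.5, 104 and 99.6 CPM with sgPrrx1 fibroblasts, above cells alone with WT fibroblasts and below with sgPrrx1 fibroblasts. Of 18 chaperones of the endoplasmic reticulum 10 fell and 2 rose, with a median of -0.13. The rises numbered 0 without alone replicate 1 or sgPrrx1 replicate 2 and 1 when any other replicate of these groups was left out. Hsp90b1 among them had 1623, 1706 and 1665 CPM alone, 1822, 1877 and 1918 CPM with WT and 1319, 1333 and 1289.6 CPM with sgPrrx1 fibroblasts. Of 24 genes of the ATF4 amino acid response 10 rose and 4 fell, against 26.6% and 30.2%, and the rises were led by Chac1 (0.95), which degrades glutathione. Of the promoter windows of that list 20.8% held the letters TGATGCAA, against 0.895% of all windows.

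Cebpb was at 105, 7.77 and 105 CPM in the alone libraries, 133, 4.12 and 133 CPM in the WT libraries and 116, 120.1 and 124 CPM in the sgPrrx1 libraries, with replicate 2 low in the alone and WT groups. Igf2 was measured at 1426, 1282 and 2159 CPM alone, 580.4, 549.7 and 1009 CPM with WT and 925, 906 and 1312 CPM with sgPrrx1 fibroblasts, highest in replicate 3 of each group, and its log2 fold change of -0.63 had an adjusted p of 0.0585 in edgeR. With the replicate number as a block it passed (-0.61, adjusted p 2.93e-05 in edgeR), as it did with only the alone and sgPrrx1 libraries (0.0240), without alone replicate 2 (0.0426) and without sgPrrx1 replicate 3 (0.0334).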
